A study of Mus musculus with 22 samples.

Results

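The genes described here encode histone acetyltransferases and a subunit of an acetyltransferase complex, read in 22 single mouse astrocytes that had been sorted by their calcium response to ethanol (EtOH). The 10 members were taken by symbol from the gene table: *Ep300*, *Crebbp*, *Kat2a*, *Kat2b*, *Kat5*, *Kat6a*, *Kat6b*, *Kat8*, *Hat1* and *Brd8*. All 10 were found among the 23453 gene symbols of the table, and all 10 passed the filter on low values, a read in 5 or more cells, that left 12719 genes. The cells came from primary cultures of cerebral cortex of C57BL/6 pups at P0-P1, were kept without serum before imaging, received EtOH and, at the end of imaging, ATP, and were picked with a glass pipette after their calcium trace had been seen. S-type cells (n = 6) answered EtOH with a slow and sustained calcium rise, T-type cells (n = 6) with a sharp and transient one, M-type cells (n = 5) with a mixture of both, and NR cells (n = 5) did not respond. NR cells are therefore the baseline of the study but not untreated, since they carried the same EtOH and ATP exposure, the same strain and the same culture steps. Cultures had been shaken and treated with cytosine arabinoside against other cell types. The labels name neither the pup and culture of a cell nor how long after EtOH it was picked.

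Histone acetyltransferases move an acetyl group from acetyl-CoA to lysines of histone tails and of other proteins, which loosens the hold of the tail on DNA and gives bromodomain proteins a place to bind. Most of them work inside large complexes whose other subunits decide where on the genome they act. In astrocytes, as in other cells, calcium signals reach p300 and CBP through CREB, and acetate made from ethanol can feed the acetyl-CoA pool.

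Sequencing depth ran from 2937786 to 22131076 reads on genes per cell, and from 6319 to 13070 genes with a read. T-type cell 3 had the smallest library and T-type cell 2 the fewest genes. Below, a normalized count is a read count over the size factor of its cell (median of ratios), and the level of a type is the mean over its cells. Each library is 1 cell of unstated animal, so a response type counts as 1 sample: no test was made, no p-value is given, and the spread over cells stands beside each level. Intervals on log2 ratios are exact binomial limits at 95% for the split of the summed reads, moved onto the ratio of levels. They cover counting error of the summed reads only and leave out the larger weight of cells with small size factors. The RNA was amplified and carries no molecular tags that would let copies be told from molecules. All 10 astrocyte markers looked for were read in at least 11 cells, with *Slc1a3*, *Aqp4* and *Glul* the most read, whereas no read fell on *Sox10*, *Slc17a7*, *Cdh5*, *Cldn5* or *Rgs5*. Other genes of the same lists were widely read: *Acta2* of the mural and fibroblast list in all 22 cells, with 539975 reads against 359681 for *Slc1a3*, and *Olig1* and *Map2* of the oligodendrocyte and neuron lists in all 22 as well. Summed microglia markers stayed at or below 5.08 CPM (reads scaled to the library total) in S-, T- and M-type cells and stood at 43.8, 44.5, 0.0664, 28.2 and 0.792 in the NR cells. The part of other cell types in the ratios below was not tested.

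The most abundant member per kilobase of exon was *Hat1*, which encodes the enzyme that acetylates newly made histone H4 before it is laid down on DNA. Its mean over 22 cells was 828.5 normalized counts per kilobase. *Kat2b*, which encodes PCAF, followed with 251 per kilobase, *Brd8*, a bromodomain subunit of the NuA4/TIP60 complex, with 104, and *Crebbp*, which encodes CBP, with 92.5. The remaining 6 genes lay between 17.2 per kilobase for *Kat2a* and 71.5 for *Kat8*. By normalized count, *Hat1* lay above 89.8% of the genes kept and *Kat2a* above 25.6%. These means hide a wide spread from cell to cell. The coefficient of variation over 22 cells ran from 0.867 for *Ep300* to 2.53 for *Kat5*, with a median of 1.69 over the members and 1.48 over the 11551 kept genes whose mean normalized count was 10 or more.

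**Figure D1:**
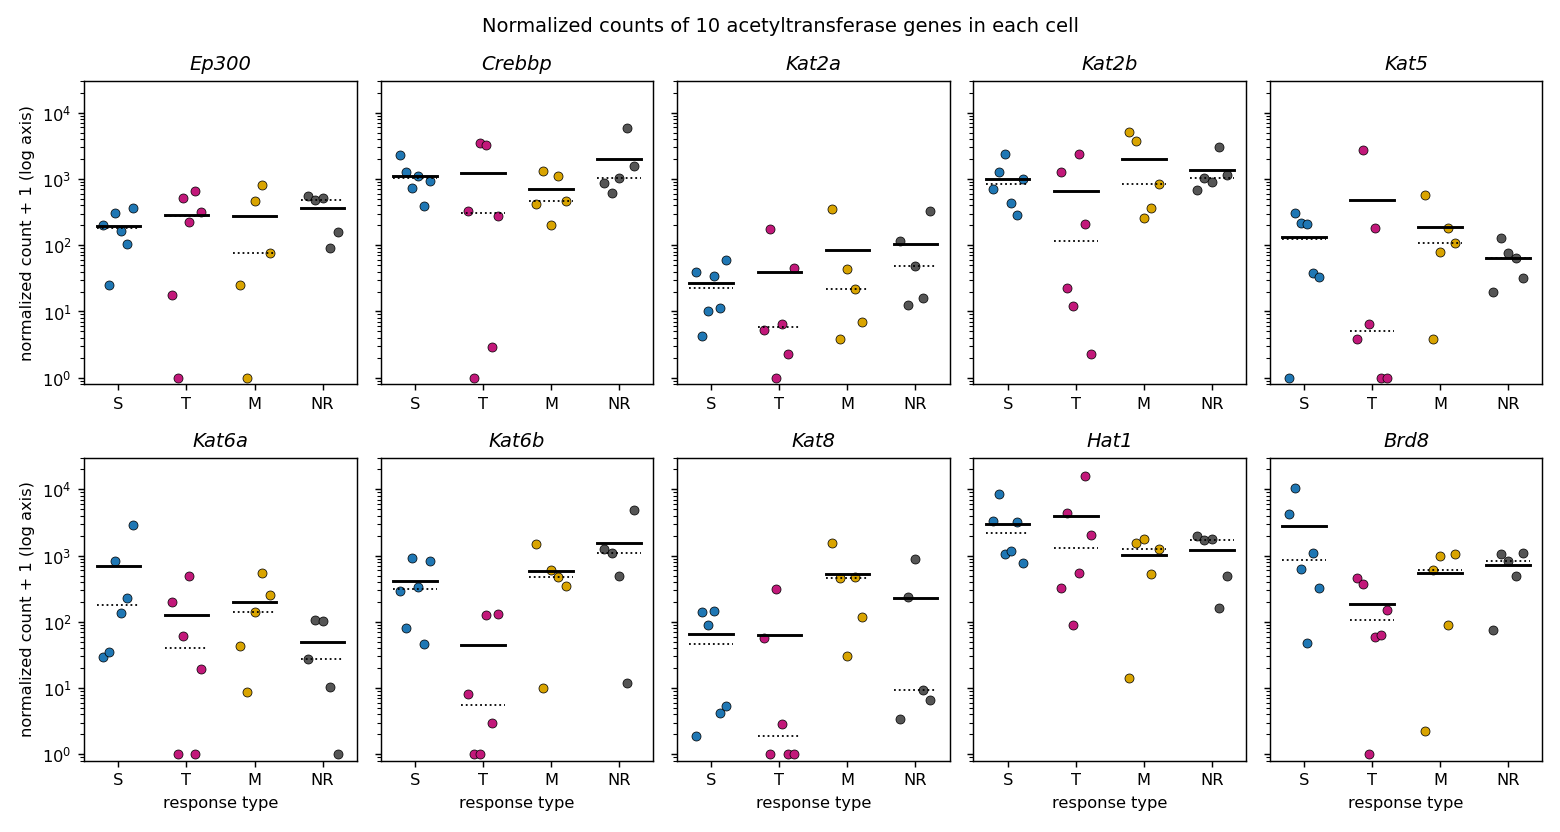
Normalized count plus 1 of each of the 10 genes (log axis) in the S-, T- and M-type and NR cells. Each point is a cell, the solid line is the mean of the type and the dotted line its median. For every gene the points of the types overlap, and 13 of the 60 T-type values lie at 0.

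T-type cells against S-type cells compare the transient with the sustained response. *Kat5* was past 2-fold higher in T-type cells, and *Kat6a*, *Kat6b* and *Brd8* were past 2-fold lower, so 4 of the 10 members passed this limit. Over all genes, 26.0% were past 2-fold higher in T-type cells and 32.3% past 2-fold lower. The median log2 ratio of the members was 0.05, beside -0.07 over all genes. With CPM in place of size factors it was -0.56, beside -0.45 over all genes, and no member was then past 2-fold higher while 3 were lower. The split of all genes moved with this scaling to 16.7% higher and 37.9% lower. No member had T-type and S-type cells that did not overlap, as was the case for 0.772% of all genes. The number of members past 2-fold was thus no larger a share than that of all genes, 58.3%.

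The other comparisons set each responding type against NR and share the same 5 NR cells, so a high or low NR cell enters all of them. In T-type against NR, *Kat5*, *Kat6a* and *Hat1* were past 2-fold higher, where 28.7% of all genes were. *Kat2a*, *Kat2b*, *Kat6b*, *Kat8* and *Brd8* were past 2-fold lower, where 32.5% of all genes were. In CPM, 2 members were higher and 5 lower, beside 19.3% and 37.9% of all genes. In S-type against NR, *Kat5*, *Kat6a*, *Hat1* and *Brd8* were past 2-fold higher, beside 25.1% of all genes, and *Kat2a*, *Kat6b* and *Kat8* lower, beside 22.4%. In M-type against NR, *Kat5*, *Kat6a* and *Kat8* were past 2-fold higher, beside 19.8%, and *Crebbp* and *Kat6b* lower, beside 28.1%. The median log2 ratio of the members was -0.90 in T-type, -0.64 in S-type and -0.28 in M-type cells, beside -0.05, 0.03 and -0.20 over all genes. No member had cells of the types that did not overlap, beside 0.993% of all genes in T-type, 0.409% in S-type and 0.598% in M-type against NR.

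**Figure D2:**
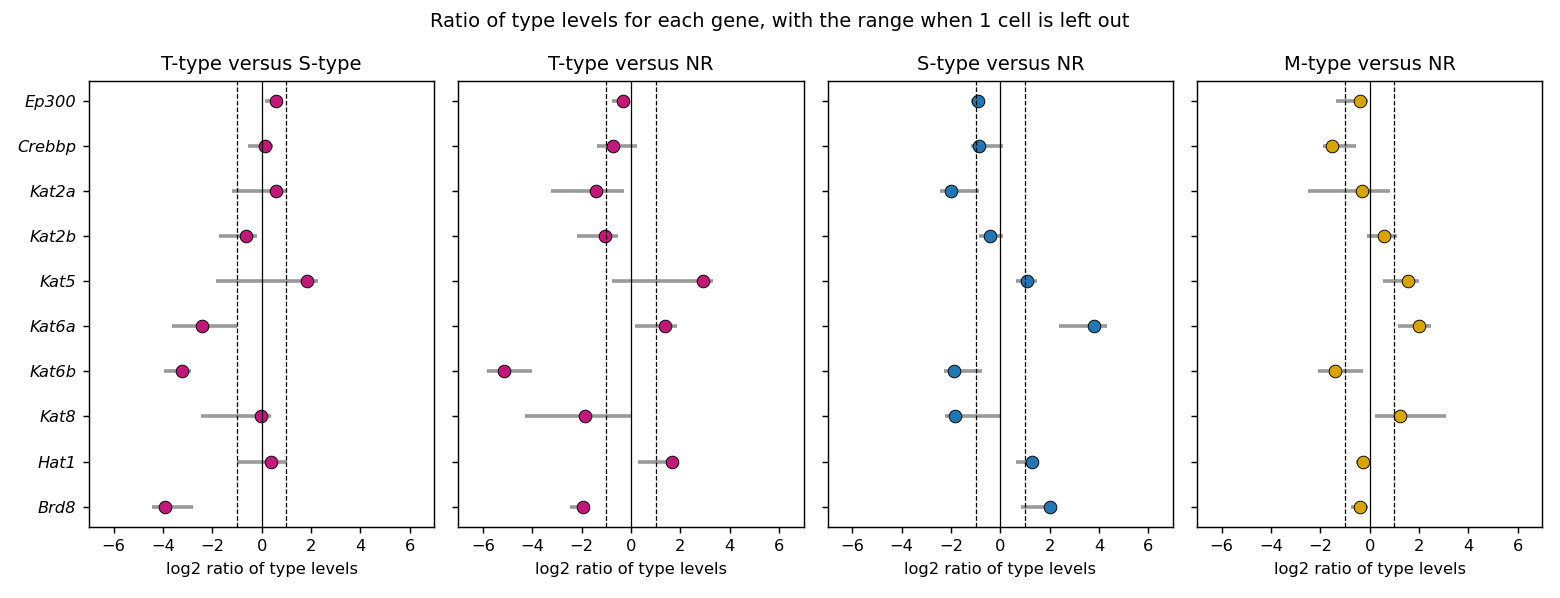
Log2 ratio of the type levels (horizontal axis) for each gene in T-type versus S-type and in T-, S- and M-type versus NR. The point is the ratio with all cells, the grey bar the range when each cell is left out in turn, and the dashed lines mark 2-fold. *Kat5* in T-type cells spans from -1.84 to 2.29 against S-type, whereas *Brd8* and *Kat6b* reach no higher than -2.77 and -2.86 there.

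*Brd8* was the member with the lowest ratio between T-type and S-type cells. The lowest, median and highest S-type cells held 46.4, 862 and 10625 normalized counts, and the T-type cells 0, 107 and 462. The M-type cells held 1.25, 603, 969, 88.7 and 1066, and the NR cells 75.3, 1049, 820.5, 499 and 1096. The high values thus sat in 2 S-type cells, cell 2 at 10625 and cell 1 at 4172, and no T-type cell exceeded 462. The T-type level was 184 and the S-type level 2815, a log2 ratio of -3.94 (interval -4.04 to -3.83) that ran from -4.46 to -2.77 when each cell was left out. Against NR, at a level of 708, the T-type ratio was -1.94, with 3 of the 6 T-type cells below every NR cell. Without NR cell 1, all T-type cells were below all NR cells, and 1.55% of all genes then had no overlap. The S-type ratio to NR was 1.99 with all cells, 0.82 without S-type cell 2 and -0.44 without S-type cells 1 and 2, so its sign rested on those 2 cells. S-type cells 1 and 2 also had the most reads on a list of 52 G2/M genes of the cell cycle. Summed over that list, the highest S-type cell held 25890 CPM, beside a median of 2336 over the 22 cells. Over all cells, *Brd8* and the G2/M list had a Spearman correlation of 0.119, and of -0.171 without these 2 cells, the points sharing library depth. The M-type level, 546, lay between T-type and NR, and its cells overlapped with those of every other type.

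*Hat1* (chr2:71388958-71441622, plus strand, GRCm38) had its highest mean levels in T-type and S-type cells, but by the median cell the order was S-type, NR, T-type and M-type. The lowest, median and highest T-type cells held 87.3, 1291 and 15952 normalized counts, and the S-type cells 769, 2182 and 8504. In the M-type cells the values were 13.1, 1536, 1764, 535 and 1269, and the NR cells 1968, 1710, 1794, 159 and 490. The order of the levels was T-type (3897), S-type (2997), NR (1224) and M-type (1023), and neighbours in that order overlapped. T-type cell 5 alone made up 68.2% of the T-type sum, and the log2 ratio of T-type to NR went from 1.67 (interval 1.64 to 1.70) to 0.28 without it and was -0.41 by the median cell. The S-type ratio to NR was 1.29 and stayed between 0.63 and 1.53 when each cell was left out, with 3 of the 6 S-type cells above every NR cell. The highest cells of *Hat1* were also those with the most reads on a list of 41 S phase genes. T-type cell 5 held 10051 CPM on that list and S-type cell 2 held 12906, beside a median of 1022 over the 22 cells. T-type cell 2, the third highest for *Hat1* at 4432 normalized counts, held 306 CPM on it. *Hat1* and the S phase list had a Spearman correlation of 0.473 over the 22 cells and of 0.299 without S-type cell 2 and T-type cell 5. For *Brd8* and the S phase list it was 0.329, and 0.34 without the same cells. Among the other members, the value furthest from 0 was -0.604 for *Kat2a* with the S phase list, or -0.519 without those cells. With the G2/M list it was -0.66 for *Kat6b*, or -0.688 without S-type cells 1 and 2. Over all 10492 genes that could be compared, the genes most like *Hat1* across cells were *Mcm6*, a subunit of the replicative helicase that is itself on the S phase list (Spearman 0.866), *Stmn1*, which encodes the tubulin-binding protein stathmin (0.839), and *Pdlim1* (0.809).

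**Figure D3:**
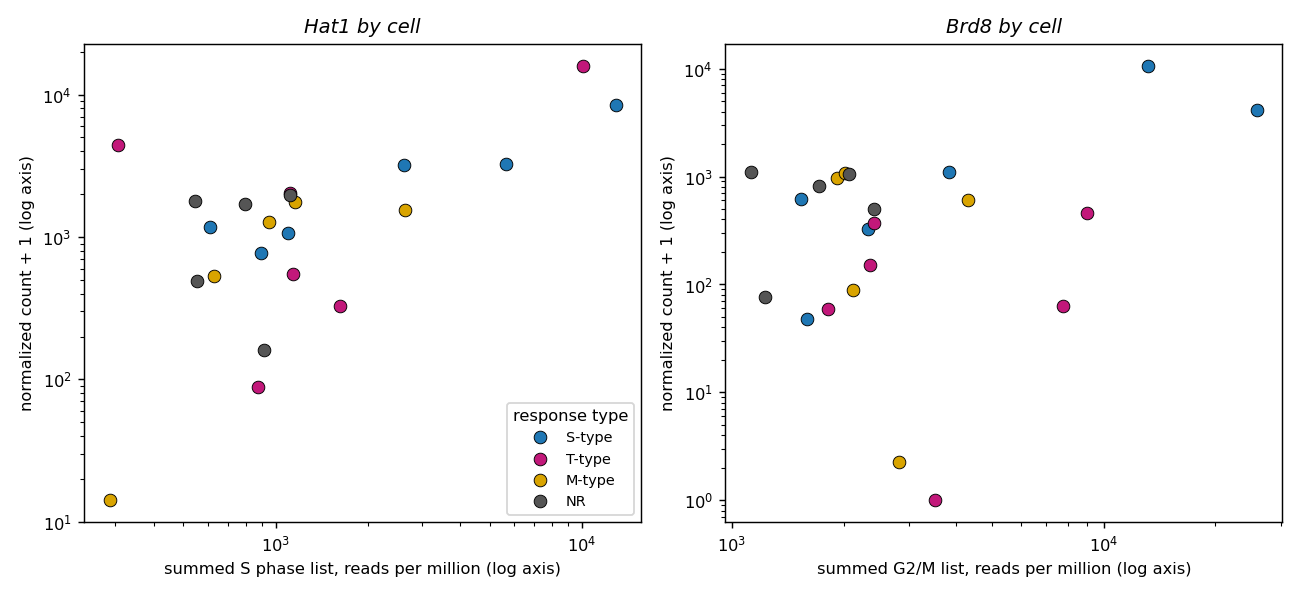
*Hat1* against the summed S phase list (left) and *Brd8* against the summed G2/M list (right) in each of 22 cells, in normalized counts plus 1 (vertical) and in CPM (horizontal), on log axes. S-type cell 2 and T-type cell 5 are the rightmost points for *Hat1*, and S-type cells 1 and 2 the rightmost for *Brd8*.

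*Kat6a* and *Kat6b* encode MOZ and MORF, close relatives that work as catalytic subunits of the same kind of complex, with BRPF scaffolds and ING5. *Kat6a* lies at chr8:22859535-22943259 and *Kat6b* at chr14:21481434-21672478 of GRCm38, both on the plus strand. Their levels against NR lay in opposite directions in all 3 responding types. The lowest, median and highest *Kat6a* values were 28.4, 179 and 2867 normalized counts in S-type and 0, 39.3 and 483 in T-type cells. M-type cells carried 41.9, 7.70, 138, 542 and 251, and the NR cells 26.7, 107, 102, 9.57 and 0. NR was thus the lowest type for *Kat6a*, with no cell above 107. The log2 ratio to NR was 3.81 in S-type (interval 3.66 to 3.96), 2.00 in M-type and 1.37 in T-type cells. Leaving out each cell kept the S-type ratio between 2.36 and 4.31 and the M-type ratio between 1.16 and 2.50, while the T-type ratio fell to 0.18 without T-type cell 4. Of the S-type cells 4 of 6, of the M-type cells 3 of 5 and of the T-type cells 2 of 6 lay above every NR cell. S-type cell 6 made up 69.5% of the S-type sum. S-type cells 1 and 2, the highest on the G2/M list, were also the lowest S-type cells for *Kat6a*, at 28.4 and 33.6. They were the only S-type cells within the NR range, so leaving them out removed the overlap by construction. With them left out, 1.36% of all genes had no overlap. T-type against S-type, the ratio was -2.44, and -0.99 without S-type cell 6.

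*Kat6b* showed the largest ratio of any member in the 4 comparisons. The lowest, median and highest values were 44.7, 314 and 914 normalized counts in S-type and 0, 4.49 and 131 in T-type cells. The M-type cells held 1495, 9.10, 596, 477 and 344, and the NR cells 1237, 1077, 496, 10.8 and 4894. No T-type cell exceeded 131, and 4 of 6 lay below every cell of S-type or NR. The others, T-type cells 4 and 6 at 124 and 131, lay above several cells of other types. These were S-type cells 2 and 5 (80.2 and 44.7), M-type cell 2 (9.10) and NR cell 4 (10.8). The T-type level of 43.95 was 35.1-fold below the NR level of 1543, a log2 ratio of -5.13 (interval -5.31 to -4.96) that stayed between -5.86 and -4.00 when each cell was left out. Without NR cell 4, every T-type cell was below every NR cell, and 2.22% of all genes then had no overlap. Against S-type, at 418, the T-type ratio was -3.25, between -3.97 and -2.86. The S-type ratio to NR was -1.89 and the M-type ratio -1.40, and both shrank without NR cell 5, to -0.76 and -0.27, since that cell made up 63.4% of the NR sum. Per kilobase and within the same cell, *Kat6b* exceeded *Kat6a* in 4 of 5 NR, 3 of 6 S-type, 2 of 5 M-type and 2 of 6 T-type cells, where 3 T-type cells had the reverse and 1 had neither.

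**Figure D4:**
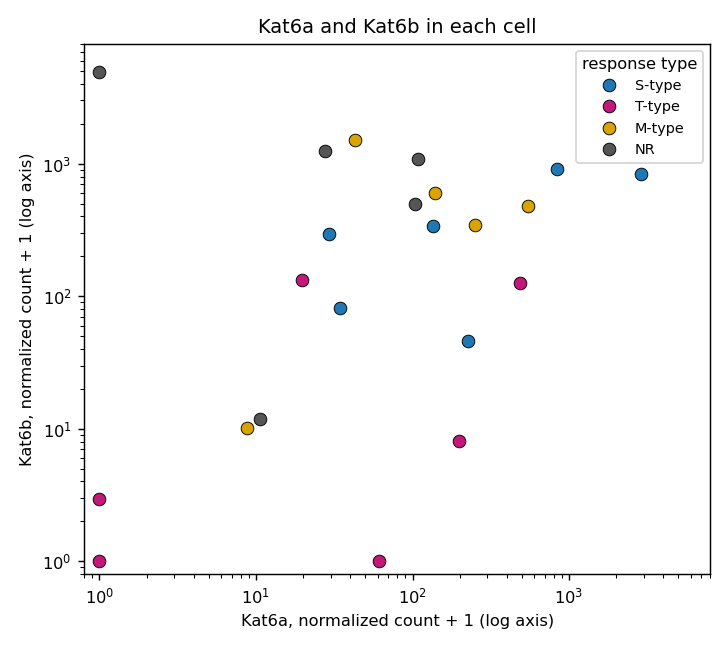
*Kat6a* (horizontal) and *Kat6b* (vertical) in each of 22 cells, in normalized counts plus 1 on log axes, coloured by response type. The NR cells lie to the left, at or below 107 for *Kat6a*, and the T-type cells lie low, at or below 131 for *Kat6b*. Some cells of the other types also lie within each of these limits.

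*Kat5* encodes TIP60, the catalytic subunit of the NuA4/TIP60 complex to which *Brd8* also belongs, and lies at chr19:5603014-5610237 on the minus strand. The lowest, median and highest values were 0, 124 and 309 normalized counts in S-type and 0, 4.13 and 2698 in T-type cells. The 5 M-type values were 569, 2.80, 77.4, 183.1 and 108, and the NR cells 18.8, 126, 76.2, 64.0 and 31.5. Of the T-type cells 4 of 6 lay below every NR cell, but T-type cell 2 was the highest of all 22. That cell, with 744 reads, made up 93.5% of the T-type sum. The T-type ratio was 1.85 to S-type and 2.93 to NR on the log2 scale, and without this cell it turned to -1.84 and -0.76. In CPM the ratio to S-type was 0.14, since this cell had a size factor of 0.276. The M-type ratio to NR was 1.57 and the S-type ratio 1.08, and leaving out each cell brought these down to 0.55 and 0.64. In the annotation, 426 bases of *Kat5* exons overlap exons of *Rnaseh2c*, which lies on the opposite strand. The strand setting of the counting is not given in the sources used here. Reads on *Rnaseh2c* numbered 136 in T-type cell 2, fewer than the 744 on *Kat5*. By normalized count, however, only M-type cell 2, at 494.3, exceeded this cell for *Rnaseh2c*. The other T-type cells held 1.824 to 217.7. M-type cell 2 and S-type cell 1, the latter at 492.7 for *Rnaseh2c*, had 4 and 0 reads on *Kat5*. Whether reads of *Rnaseh2c* entered the *Kat5* count was not tested.

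*Kat8* encodes MOF, which acetylates histone H4 within the MSL and NSL complexes. The lowest, median and highest values were 0.888, 46.1 and 143 normalized counts in S-type and 0, 0.912 and 316 in T-type cells. In M-type cells there were 1571, 454, 29.1, 472 and 118, and the NR cells 2.43, 232, 896, 8.37 and 5.56. M-type cells thus stood highest, none of them below 29.1, and 3 of the 6 T-type cells had no read. The M-type level of 529 gave a log2 ratio of 1.21 to NR, or 0.23 without M-type cell 1 and 3.09 without NR cell 3, which made up 78.3% of the NR sum. T-type and S-type levels were 62.4 and 63.5, and their ratios to NR, -1.87 and -1.85, were 0.0076 and 0.03 without NR cell 3. T-type cell 3 made up 84.5% of the T-type sum. Without that cell the T-type ratio was -2.45 to S-type and -4.30 to NR. By the median cell the T-type ratio to S-type was -4.62. The exons share 122 bases with *Prss8* on the opposite strand, on which only 2 reads fell in the 22 cells.

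*Ep300* and *Crebbp* encode p300 and CBP, coactivators that acetylate histone H3 at enhancers and promoters. *Ep300* had the smallest coefficient of variation, at levels of 192 in S-type, 274 in M-type, 289 in T-type and 360 in NR cells, and no ratio passed 2-fold. Its cells ran from 0 to 804 normalized counts, and the types overlapped. The M-type ratio to NR was -0.39 but -1.35 without M-type cell 4 and -2.63 by the median cell, and the S-type ratio was -0.90 but -1.18 without S-type cell 6 and -1.37 by the median cell. For *Crebbp*, the S-type cells held 395, 1016 and 2283 and the T-type cells 0, 304 and 3464 as lowest, median and highest. The M-type cells held 414, 1325, 203, 1094 and 467, and the NR cells 868, 605, 1043, 5949 and 1591. NR had the highest level, 2011, of which NR cell 4 made up 59.2%. The M-type ratio of -1.52 was past 2-fold and became -0.55 without that cell. Per kilobase, *Crebbp* exceeded *Ep300* in 18 of 22 cells, among them all 6 S-type and all 5 NR cells, while T-type cells were divided, 3 against 2, with neither read in 1.

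*Kat2a* and *Kat2b* encode GCN5 and PCAF, alternative catalytic subunits of the SAGA and ATAC complexes, which acetylate histone H3. Per kilobase, *Kat2b* exceeded *Kat2a* in 20 of 22 cells, and both exceptions were T-type cells. *Kat2a* ran from 0 to 348 normalized counts. Its level was 103 in NR, 84.0 in M-type, 38.1 in T-type and 25.5 in S-type cells. The S-type ratio to NR was -2.02, or -0.88 without NR cell 5, and the T-type ratio -1.44, or -0.30 without that cell. T-type cell 2 made up 76.1% of the T-type sum and M-type cell 1 82.8% of the M-type sum, and without them the ratios to NR were -3.24 in T-type and -2.51 in M-type cells. By the median cell the order was NR, S-type, M-type and T-type. For *Kat2b*, the NR cells held 688, 1043, 908, 3048 and 1130, the M-type cells 5017, 3674, 253, 364 and 828.6, and the S-type cells 286, 848 and 2341 as lowest, median and highest. The T-type cells held 1253, 21.8, 10.9, 2391, 211 and 1.28, so 4 of 6 lay below every cell of S-type and NR, and the others were as high as in other types. The T-type level of 648 gave a ratio of -1.07 to the NR level of 1363, and of -0.54 without NR cell 4.

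Correlations between the members from cell to cell were spread around 0. They were not computed for pairs of other genes, so no comparison with genes in general is given. Of the 45 pairs of members, 25 had a Spearman correlation above 0 over the 22 cells, and the median was 0.013. The pairs ran from -0.486 for *Kat8* and *Hat1* to 0.617 for *Kat2a* and *Kat6b*, the latter being the only pair above 0.5. The points share the depth and size factor of a library. RefSeq's promoter windows (build GRCm38.p6) were found for 8 of the 10 members, and the 250 bases before the start were searched on both strands for 6 motifs. Of 32851 such windows 4.28% held the E2F core, whose letters are TTTNNCGC. The GC box, written GGGCGG, was in 32.7% of them. A CCAAT box was in 33.8% and a TATA box, searched as TATAAA, in 12.4%. The ETS core, searched as CCGGAAG, was in 6.91%, and TGACG, found in CRE sites, in 17.8%. The windows of *Kat2a* (chr11:100712468-100712717, minus strand) and *Kat6b* (chr14:21499520-21499769, plus strand) are shown because these genes were the most alike pair, and neither window overlaps an annotated exon. The *Kat6b* window lies inside the gene span given above, so its start is not the first of the gene. Another *Kat6b* window, at chr14:21499535-21499784, overlaps 1 exon and is not shown. Capitals mark the E2F core and the GC boxes, on either strand.
Kat2a: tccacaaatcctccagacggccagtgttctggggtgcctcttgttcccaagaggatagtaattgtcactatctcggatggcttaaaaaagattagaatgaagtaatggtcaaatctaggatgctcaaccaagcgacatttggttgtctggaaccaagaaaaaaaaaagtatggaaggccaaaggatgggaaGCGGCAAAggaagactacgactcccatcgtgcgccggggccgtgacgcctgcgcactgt
Kat6b: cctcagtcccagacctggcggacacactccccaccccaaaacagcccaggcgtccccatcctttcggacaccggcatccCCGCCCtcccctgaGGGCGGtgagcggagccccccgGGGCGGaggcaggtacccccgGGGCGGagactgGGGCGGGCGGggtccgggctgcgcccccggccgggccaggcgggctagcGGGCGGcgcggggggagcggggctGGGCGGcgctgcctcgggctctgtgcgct
The window of *Kat2a* held 48.8% G and C, 1 E2F core on the minus strand, 1 TGACG and no GC box. That of *Kat6b* held 78.8% G and C and 8 GC boxes, some of them overlapping, and none of the other motifs. The median window held 52.4% G and C. The pair thus shared none of the motifs searched, which says nothing about the factors that bind there.

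The genes most like the members across cells were taken as the 3 with the highest Spearman correlation among 10492 candidates. Such values are the top of a large selection over cells that share library depth, and no background for them is given. For *Kat6b* these were *Mfap1b* (0.845), *Zscan21* (0.835) and *Mbtd1* (0.831), the latter a subunit of the NuA4/TIP60 complex. *Ep300* was most like *Dgkd* (0.836), *Kat8* most like *Fam160b1* (0.837), *Kat5* most like *Zfp316* (0.823) and *Kat6a* most like *Tmem186* (0.785). *Brd8* was most like 9130401M01Rik (0.778), *Kat2b* most like 0610007N19Rik (0.768) and *Kat2a* most like *Serinc1* (0.745). With Pearson's correlation in place of Spearman's, 8 of the 30 genes so chosen were named again, among them *Mcm6* and *Stmn1* for *Hat1*.

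Reads of the members were missing mainly in T-type cells. Of 60 pairs of a member and a T-type cell, 13 had no read, against 1 of 60 in S-type, 1 of 50 in M-type and 1 of 50 in NR. As a share with a read this was 78.3% in T-type, 98.3% in S-type, 98.0% in M-type and 98.0% in NR cells. When all cells were thinned to the smallest library, the share was 73.3% in T-type cells and between 92.0% and 98.0% in the other types. The same held for genes in general, with 71.8% of pairs read in T-type, 88.3% in S-type, 87.4% in M-type and 86.7% in NR cells over the same 11551 genes. T-type cell 2 had a read on 5 of the members, and T-type cells 3 and 5 on 7 each. Leaving out *Hat1*, the other 9 members together took 71.6, 94.6 and 556 CPM in the lowest, median and highest T-type cells. The corresponding values were 224, 537.5 and 892 in S-type, 272, 395 and 734 in M-type and 296, 469 and 861 in NR cells. Their median was thus lower in T-type cells, while T-type cells 3 and 4 lay among the cells of other types. Most of the summed level came from 1 cell for 6 members in T-type, 6 in M-type, 4 in NR and 2 in S-type cells, as it did for 71.6%, 50.3%, 57.5% and 44.9% of all genes.

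The partners of these enzymes were described with 74 genes in 6 lists of complex subunits and cofactors, of which 71 had a read in at least 5 cells. The lists include *Kat7*, which encodes the acetyltransferase HBO1 itself and was not among the members. Between T-type and S-type cells, 14 were past 2-fold higher and 23 lower, with a median log2 ratio of -0.36, where 26.0% and 32.3% of all genes were. In CPM the split was 5 higher and 29 lower, beside 16.7% and 37.9% of all genes. Against NR, T-type cells had 15 higher and 29 lower (median -0.59), beside 28.7% and 32.5% of all genes. S-type cells had 16 and 17 (0.06), beside 25.1% and 22.4%, and M-type cells 7 and 20 (-0.10), beside 19.8% and 28.1%. Over all genes the medians were -0.07 in T-type against S-type and -0.05, 0.03 and -0.20 against NR. The MOZ/MORF and HBO1 list had the lowest median in T-type against NR, -1.88, with 5 of 8 genes past 2-fold lower and 2 higher, beside 32.5% and 28.7% of all genes. Those higher were *Kat7* (4.66) and *Ing4* (1.64). The p300/CBP coactivator list had the lowest in T-type against S-type, -1.50, with 6 of 10 lower and 1 higher, beside 32.3% and 26.0% of all genes. It holds *Ncoa3* (-5.56) and *Npat* (-4.42), which the paper lists as differential between these types. The paper also lists *Brpf3* and *Kansl2* of other partner lists, and the member *Brd8*. The lists were written with earlier results of these data known, so their medians are no independent support. The NuA4/TIP60 list, the complex of *Kat5* and *Brd8*, had medians of -0.26 in T-type against S-type and -0.20 in T-type against NR.

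The most read gene of each list was followed in all cells. For the histone chaperone gene *Rbbp7*, which encodes a binding partner of HAT1, levels were 26833 in T-type, 15639 in S-type, 12319 in M-type and 10522 in NR cells, in the order of *Hat1* except that M-type and NR changed places. Its T-type cells ran from 5427 to 80774, and its T-type median, 16987, was close to the S-type median of 16034. *Morf4l2*, a chromodomain-related subunit of NuA4/TIP60, had medians of 7011 in T-type, 3701 in S-type, 7199 in M-type and 3871 in NR cells. *Taf9*, of the SAGA list, had 1644, 2473, 2886 and 1519. *Brd1*, a BRPF scaffold, had 29.3, 233, 620 and 1497, so that the T-type median was lowest and the NR median highest, as for *Kat6b*. Unlike *Kat6b*, the T-type cells of *Brd1* reached 1344, and its T-type to S-type log2 ratio of levels was -0.76, within 2-fold. *Creb1*, which encodes the calcium-responsive factor that recruits CBP, had medians of 363, 1018, 1695 and 947, and *Ogt*, of the NSL list, 1359, 690, 1890 and 1499. Of the 71 genes, none had T-type and S-type cells that did not overlap, beside 0.772% of all genes. In S-type against NR there was 1 such gene, beside 0.409% of all genes. This was *Asf1a*, a histone H3-H4 chaperone on the HAT1 list, picked out after its values were seen. Its S-type cells, at 176.5 to 1175 normalized counts, all lay below its NR cells, at 1226 to 2840.

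**Figure D5:**
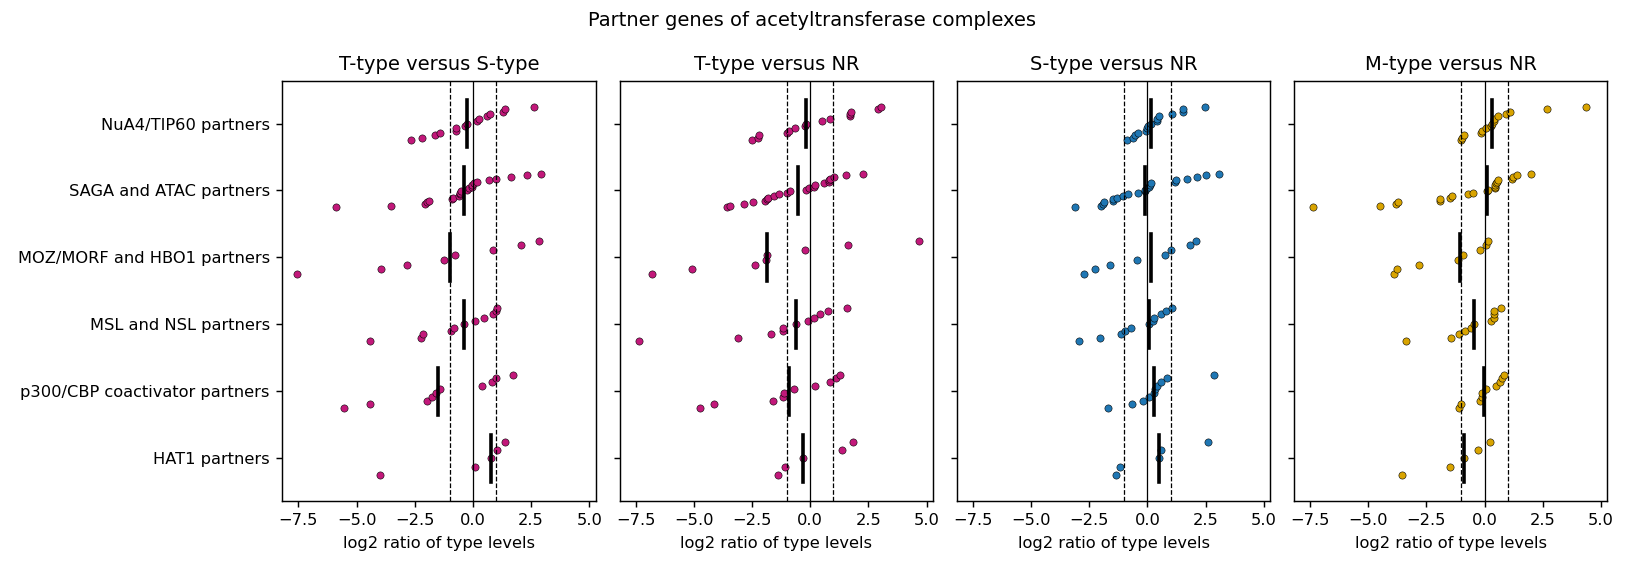
Log2 ratio of type levels (horizontal axis) for 71 partner genes in 6 lists of acetyltransferase complexes, in the 4 comparisons. Each point is a gene, the thick bar the median of the list and the dashed lines 2-fold. The MOZ/MORF and HBO1 list has a median of -1.88 in T-type versus NR.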

How the data were processed

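Single-cell RNA of 22 astrocytes was amplified by the authors in rounds of antisense RNA synthesis, sequenced in pairs from stranded libraries and aligned to GRCm38, with STAR and HTSeq named in the submitters' processing notes and VERSE in the methods. Versions and the strand setting are not given in the sources used here. The deposited table holds raw read counts per gene symbol, and no library pair was identical. Cells were grouped by the response label, and their numbers only follow the order of the labels. Size factors came from 3670 genes with a read in every cell. Genes needed a read in at least 5 cells, a type level of 0 was set to a floor of 3 reads over the type, and 2-fold was the limit for a called ratio. Exon lengths and overlaps were taken from GENCODE vM21. Each type counts as 1 sample, so no test was run, whereas the study's test took cells as replicates. The ratio script was tested on simulated data. Python 3.11.15, NumPy 2.4.6, SciPy 1.17.1, pandas 2.3.3, and edgeR 4.0.16 in R 4.3.3 (TMM factors only) were used. Members, lists and comparisons were chosen with earlier results of these data known. Every member was named. Of each partner list the most read gene was named, and for each member the most similar genes by Spearman correlation of log2 normalized counts plus 1, among genes read in at least 11 cells at a mean level of at least 10. The gene most like *Crebbp* is not reported here.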

Additional observations from a re-analysis of the deposited data

Results flagged for a closer look

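A cell that stood far from the others of its type was looked for in 40 sets of 5 or 6 cells, 1 for each member and type, with Dixon's criterion on log2 of the normalized count plus 1. Chance marks about 1 in 20 such sets, and 2 were marked. *Hat1* in M-type cell 1 stood at 13.14 normalized counts (21 reads), far below the next lowest M-type cell at 535. The same cell held the highest M-type value of 5 of the 10 members and the lowest of 2. No share over all genes is given for these counts. *Brd8* in T-type cell 3 stood at 0, below the next lowest T-type cell at 58.4. This cell had the smallest library, 2937786 reads.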

How the results depend on the processing

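TMM factors, CPM, thinning and 1 added to each level instead of a floor turned no member past 2-fold to the other direction. Alternatives with the median cell or without named cells were chosen after seeing the data. With the median cell of a type plus 1, 8 members were past 2-fold in T-type against S-type, all lower, beside 45.1% of all genes lower and 10.2% higher. Without S-type cell 2 and T-type cell 5, 4 were past 2-fold in S-type against NR, beside 47.0% of all genes. Without S-type cells 1 and 2, 1 member (*Kat6a*) had S-type and NR cells that did not overlap, beside 1.36% of all genes. Those cells were the only S-type cells within the NR range of *Kat6a*, so this followed by construction. Leaving out each cell gave 4 to 5 members past 2-fold in T-type against S-type, 6 to 8 in T-type, 4 to 8 in S-type and 3 to 6 in M-type against NR, where the share of all genes was 55.7% to 61.9%, 58.3% to 64.7%, 45.7% to 52.9% and 46.8% to 52.3%. The members' medians ran from -0.80 to 0.28, -1.26 to -0.52, -0.81 to 0.11 and -0.51 to 0.17. The count without overlap stayed at 0, but went from 0 to 1 in T-type against NR (*Brd8* without NR cell 1, *Kat6b* without NR cell 4), beside 1.55% and 2.22% of all genes. The lowest S-type count came without S-type cell 2 and the lowest M-type count, 3, without NR cell 5. Over the alternatives, the 24 member ratios past 2-fold changed sign in 11 of 425 values, and the 16 ratios within 2-fold in 36 of 285. *Kat5* in T-type against S-type became -1.84 without T-type cell 2, -1.56 without T-type cells 2 and 3 and -4.60 by the median cell, and against NR -0.76, -0.48 and -3.66; its leave-one-out ranges were -1.84 to 2.29 and -0.76 to 3.34. *Kat8* against NR had ranges of -4.30 to 0.0076 (T-type) and -2.26 to 0.032 (S-type), both highest without NR cell 3, and became 2.33 in S-type by the median cell. *Hat1* in T-type against NR became -0.41 by the median cell. *Brd8* in S-type against NR became -0.44 without S-type cells 1 and 2. No paired analysis was possible because cell numbers only follow the order of the labels and no result comes from a test. T-type cells 2 and 3 had size factors of 0.276 and 0.183, the former at 12564138 reads.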
